A study of Mus musculus with 8 samples.

Results

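The costimulatory and checkpoint ligands described here are 10 genes chosen by name, namely Cd80, Cd86, Icosl, Cd274, Pdcd1lg2, Cd276, Cd40, Tnfsf9, Havcr2 and Cd48, out of 54532 genes in the count table. All 10 had enough counts to be tested. RNA was sequenced from untreated bone marrow-derived macrophages (BMDMs), which are grown from marrow cells with the growth factor M-CSF, after 6 days of differentiation. WT cells came from female C57BL/6J mice, bought at 6 to 8 weeks of age, and cells of the other group from mice without functional Gsdmd (Gsdmd-/-), given by another laboratory and kept in the facility of the study. Gsdmd encodes gasdermin D, which forms pores in the cell membrane during pyroptosis. Each genotype has 4 libraries. Whether the groups were littermates, how the allele was made and whether each library came from its own mouse is not stated, so p-values measure only the spread between these libraries, which may be technical.

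Macrophages and other antigen-presenting cells carry these proteins on their surface and through them speed or restrain the T cells that they meet. CD80 and CD86 bind CD28, which costimulates, and CTLA4, which restrains. PD-L1 (Cd274) and PD-L2 (Pdcd1lg2) bind the inhibitory receptor PD-1, and ICOSL binds ICOS. B7-H3 (Cd276) belongs to the same B7 family, and its receptor is debated. CD40 is itself a receptor, through which CD40L on T cells licenses antigen-presenting cells, while 4-1BBL (Tnfsf9) is the ligand of 4-1BB. TIM-3 (Havcr2) is an inhibitory receptor that myeloid cells also carry, and CD48 of the SLAM family binds 2B4 (Cd244a) and CD2.

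No ligand passed the test between genotypes, and for the most abundant of them the intervals were narrow. Cd274 had 491 ± 58.6 CPM (counts scaled by TMM to a common library size) in the 4 WT libraries, and 543 ± 53.3 CPM in the 4 from Gsdmd-/- cells, where ± is the SD. Cd48 had 66.1 ± 3.16 and 68.5 ± 6.27 CPM. The widest estimates were lower levels of Pdcd1lg2 (log2 fold change -0.74) and Tnfsf9 (-0.70) in Gsdmd-/- cells, and both came with wide intervals. For Pdcd1lg2, Cd86, Icosl and Tnfsf9 the 4 WT libraries fell into a high pair (WT 1 and WT 4) and a low pair (WT 2 and WT 3).

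Of the 10 ligands, 0 had an adjusted p under 0.05 in the quasi-likelihood test of edgeR, against 0.349% of all 12911 genes tested (45 genes). At the cutoff used by the study, an unadjusted p under 0.05 with a log2 fold change of 0.5 or more in size, the ligands again gave 0 calls, against 4.83% of all genes. An unadjusted p under 0.05 was found for Cd80 alone, 1 of 10, against 12.0% of all genes. DESeq2 and limma voom also called 0 ligands at an adjusted p under 0.05. The 2 groups overlapped for every ligand, whereas 7.59% of all genes tested showed no overlap. Of the estimates, 5 lay above and 5 below 0 with a median of -0.06, and the median over all genes tested was -0.01.

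Total counts lay between 14935114 and 16794810 per library, so that 3 counts, the limit taken for a count of 0, correspond to 0.177 to 0.199 CPM (counting error only). Gsdmd itself fell from 75.2 ± 14.1 to 16.2 ± 1.56 CPM (log2 fold change -2.22, SD over 4 libraries each, edgeR adjusted p = 4.665e-05), and no Gsdmd-/- library reached a WT library. When the libraries were placed by principal components, the first of these (PC1, 43.6% of the variance) set WT 2 (45.4) and WT 3 (38.8) apart from the other 6 libraries of both genotypes (-25.9 to -7.19). The macrophage label was borne out by its markers, since all 8 on the list were detected and tested, among them the M-CSF receptor gene Csf1r, whose mean was 1128 CPM (SD 194) for WT and 1016 CPM (SD 69.3) for Gsdmd-/-. The summed level of the B cell and of the T cell markers did not pass 0.486 CPM in any library.

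**Figure D1:**
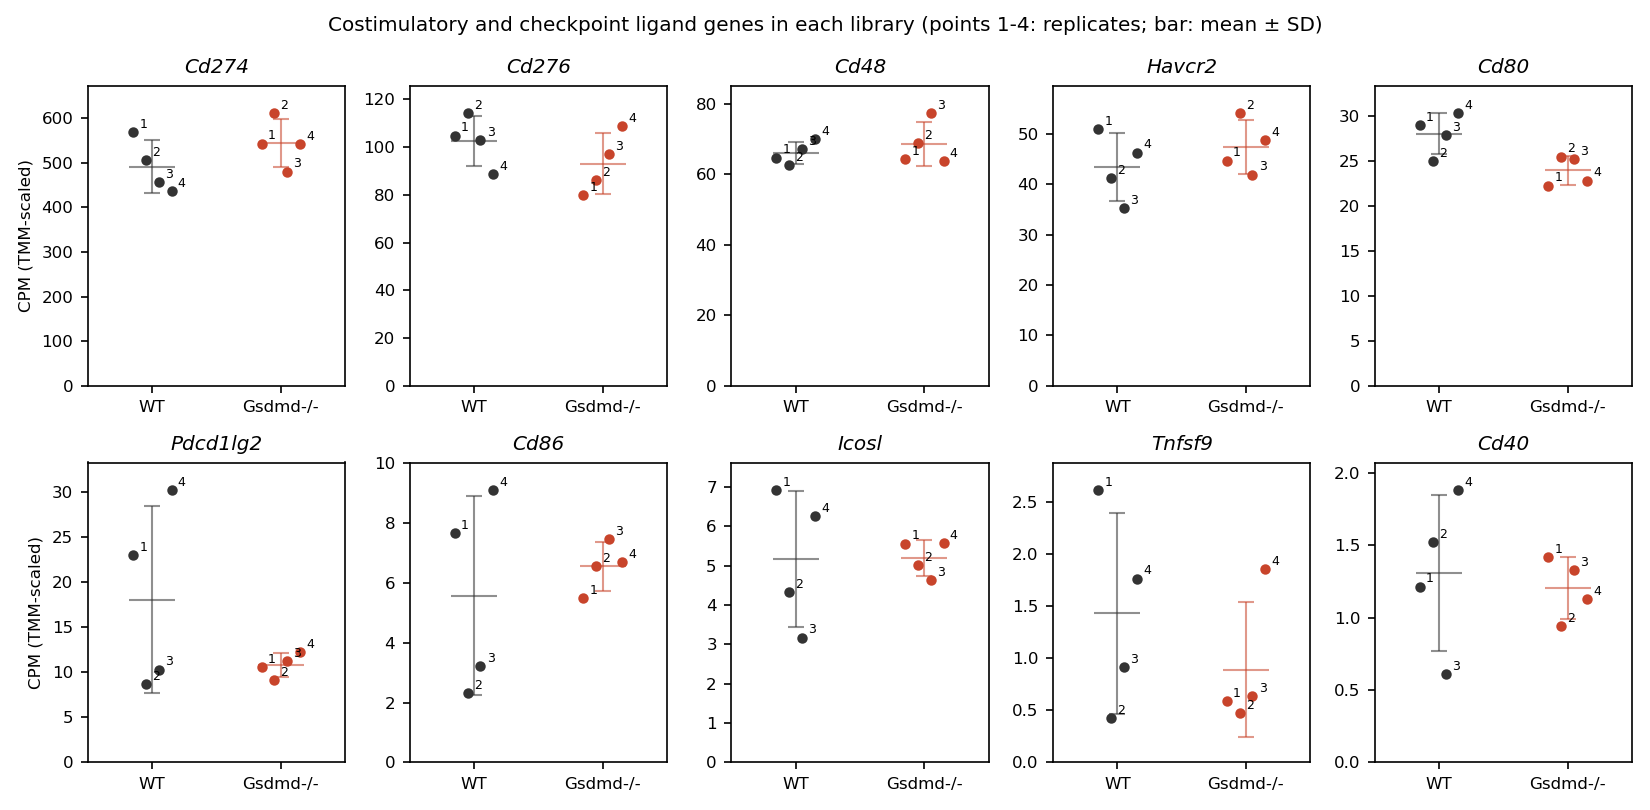
Level of each ligand in every library, in CPM on a linear axis that starts at 0 and has its own range in each panel, with WT and Gsdmd-/- libraries side by side and the mean ± SD (n = 4) of each genotype. The WT points of Cd86 run from 2.32 to 9.12 CPM and those of Pdcd1lg2 from 8.66 to 30.3 CPM, while their Gsdmd-/- points stay between 5.50 and 7.48 and between 9.16 and 12.3 CPM.

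To compare levels between genes, CPM were divided by the length of the exons of each gene (CPM per kilobase). On that scale Cd274 was far ahead, with 136 ± 16.2 in WT and 150 ± 14.7 in Gsdmd-/- (SD, n = 4 each), and it made up 52.9% and 56.3% of the summed level of the 10 genes. Cd48 followed with 55.6 in WT, then Cd276 with 28.1, Havcr2 with 15.9, Pdcd1lg2 with 9.21 and Cd80 with 7.57 CPM per kilobase. Cd86 (1.52), Icosl (1.12), Tnfsf9 (1.11) and Cd40 (0.384) were low. Among the WT libraries the ranges of neighbours in this order were separate for Cd274, Cd48, Cd276 and Havcr2 and between Cd80 and Cd86, and overlapped for every other pair of neighbours. In Gsdmd-/- the order was the same except that Cd80 (6.46) stood above Pdcd1lg2 (5.52), a pair whose ranges overlapped in both genotypes. Among the Gsdmd-/- libraries, Icosl and Tnfsf9, and Tnfsf9 and Cd40, overlapped too, and the other neighbours were separate. Lengths were taken over all annotated exons, so these levels do not follow a single isoform.

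**Figure D2:**
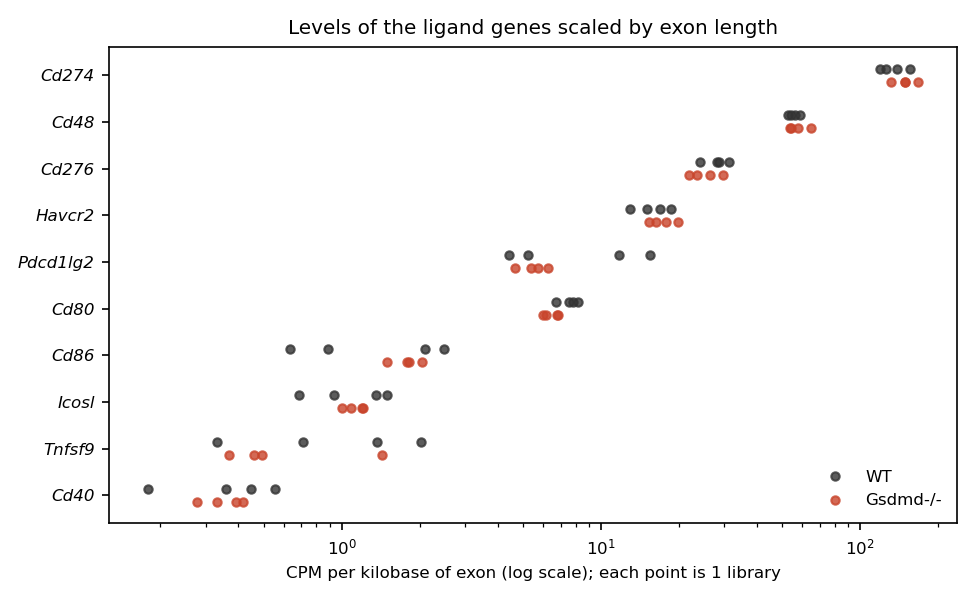
Level of the 10 ligands in CPM per kilobase of exon on a log axis, ordered by the WT mean, with a point for each library, coloured by genotype. Cd274 lies highest (means 136 in WT and 150 in Gsdmd-/-) and Cd40 lowest (0.384 and 0.354).

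The ligands of PD-1 are neighbours in the genome. Cd274 (ENSMUSG00000016496, chr19:29367455-29388095) and Pdcd1lg2 (ENSMUSG00000016498, chr19:29410919-29471161) lie on the plus strand of chromosome 19 in GRCm38 (mm10), 22.8 kb apart with 0 annotated genes between them. Cd274 had 567, 505, 456 and 435 CPM in WT 1 to 4 and 542, 610.2, 479.7 and 541 CPM in Gsdmd-/- 1 to 4. The groups overlapped over most of their range, and the log2 fold change was 0.15 (95% interval -0.09 to 0.39, edgeR adjusted p = 0.646). An increase of Cd274 above a log2 fold change of 0.39 therefore lay outside the interval. An antisense gene within Cd274, AC119228.1, shares 511 exon bases with it and is not among the counted genes, and since the strand setting of the counting is not stated, reads of the 2 genes cannot be told apart.

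Pdcd1lg2 had 23.04, 8.66, 10.3 and 30.3 CPM in WT 1 to 4 and 10.6, 9.16, 11.3 and 12.3 CPM in Gsdmd-/- 1 to 4. WT 1 and WT 4 were above all other libraries, while WT 2 and WT 3 lay within or just below the Gsdmd-/- range. The means were 18.1 ± 10.4 and 10.8 ± 1.30 CPM (SD, n = 4 each), and the log2 fold change of -0.74 had an interval of -1.52 to 0.04 (edgeR adjusted p = 0.449, exact permutation p = 0.4, two-sided). Thus the adjacent genes had estimates of opposite sign, neither of which passed the test. Within each library the count of Cd274 was 24.6, 58.2, 44.3 and 14.4 times that of Pdcd1lg2 in WT 1 to 4 and 51.2, 66.7, 42.5 and 44.1 times in Gsdmd-/- 1 to 4. The log2 ratio was 4.94 ± 0.894 in WT and 5.64 ± 0.293 in Gsdmd-/- (SD, n = 4 each), a difference of 0.70 that did not pass an exact permutation test (two-sided, p = 0.257).

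The 250 bases before the start of both genes and of Cd80 are shown because these are the ligands with the lowest p-values, and because motifs of factors known to drive such genes in macrophages can be looked for in them. They come from RefSeq (GRCm38.p6), which held 7 of the 10 ligands. Among these 7, the RefSeq start lies at another base than the GENCODE gene position given here for every gene but Pdcd1lg2. Capitals mark matches to a motif.
Cd274, chr19:29367188-29367437, plus strand: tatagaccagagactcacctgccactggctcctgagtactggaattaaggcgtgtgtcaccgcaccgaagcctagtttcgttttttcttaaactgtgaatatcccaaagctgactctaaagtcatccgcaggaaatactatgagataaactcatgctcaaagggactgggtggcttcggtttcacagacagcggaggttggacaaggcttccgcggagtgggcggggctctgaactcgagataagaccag
Pdcd1lg2, chr19:29410669-29410918, plus strand: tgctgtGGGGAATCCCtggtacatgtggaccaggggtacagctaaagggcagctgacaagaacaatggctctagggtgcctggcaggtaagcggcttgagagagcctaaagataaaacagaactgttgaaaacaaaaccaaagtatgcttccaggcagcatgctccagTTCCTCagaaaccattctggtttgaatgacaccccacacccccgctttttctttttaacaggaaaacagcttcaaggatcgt
Cd80, chr16:38458683-38458932, plus strand: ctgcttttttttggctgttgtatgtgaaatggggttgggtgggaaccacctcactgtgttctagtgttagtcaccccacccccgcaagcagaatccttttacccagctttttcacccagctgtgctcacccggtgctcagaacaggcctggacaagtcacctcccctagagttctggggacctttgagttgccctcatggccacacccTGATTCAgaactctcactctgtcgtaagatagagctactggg

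On both strands of these windows, 5 motifs were searched. The interferon-stimulated response element (GAAA, any pair of bases, GAAA) was found in 0 of the 7 ligands with a window and in 2.98% of all 32851 windows, and the STAT site TTCNNNGAA in 0 of 7 and in 7.02%. The AP-1 site TGANTCA, present in 6.75% of all windows, was found in Cd80 at position -42 and in Havcr2 at -200, counted from the RefSeq start. The PU.1 site GAGGAA, present in 23.3%, was found in Pdcd1lg2 at -82, Cd276 at -126 and Havcr2 at -8. An NF-kB site (7.25% of all windows) was found in Pdcd1lg2 at -244 and in Icosl at -111. No matches of different motifs overlapped in the ligands. Cd274 held 0 matches, and sites farther away than 250 bases were not searched.

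Of the ligands of CD28 and CTLA4, Cd80 (ENSMUSG00000075122, chr16:38455561-38496335, plus strand) had the lowest p-value of the 10 genes. It had 29.0, 25.0, 27.9 and 30.3 CPM in WT 1 to 4 and 22.2, 25.5, 25.2 and 22.8 CPM in Gsdmd-/- 1 to 4. Only WT 2 lay among the Gsdmd-/- libraries. The means were 28.0 ± 2.27 and 23.9 ± 1.65 CPM (SD, n = 4 each). The log2 fold change was -0.23 (95% interval -0.44 to -0.01), and its edgeR adjusted p was 0.387. In an exact permutation test the two-sided p was 0.0857, where 4 libraries against 4 allow 0.0286 at best.

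Cd86 (ENSMUSG00000022901, chr16:36603869-36666081, minus strand) lies on the same chromosome. It had 7.66, 2.32, 3.23 and 9.12 CPM in WT 1 to 4 and 5.50, 6.56, 7.48 and 6.69 CPM in Gsdmd-/- 1 to 4. The Gsdmd-/- libraries stood close together between a low WT pair and a high WT pair. Its log2 fold change was 0.23 with an interval of -0.59 to 1.06 (edgeR adjusted p = 0.848), wider than that of Cd80 on both sides of 0. The count of Cd80 was 3.79, 10.8, 8.62 and 3.32 times that of Cd86 in WT 1 to 4 and between 3.37 and 4.04 times in Gsdmd-/-. On the log2 scale the ratio was 2.51 ± 0.821 in WT and 1.85 ± 0.131 in Gsdmd-/- (SD, n = 4 each; difference -0.66, exact permutation p = 0.343, two-sided).

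Icosl (ENSMUSG00000000732, chr10:78069302-78083913, plus strand), the ligand of ICOS, showed the same split of the WT libraries at a smaller scale. Its levels were 6.93, 4.33, 3.17 and 6.26 CPM in WT 1 to 4 and 5.56, 5.02, 4.63 and 5.57 CPM in Gsdmd-/- 1 to 4. The means were almost equal, 5.17 ± 1.73 and 5.19 ± 0.457 CPM (SD, n = 4 each), and the log2 fold change was 0.01 (95% interval -0.52 to 0.53, edgeR adjusted p = 0.996). Cd276 (ENSMUSG00000035914, chr9:58524298-58555437, minus strand) had 105, 114, 103 and 88.8 CPM in WT 1 to 4 and 79.98, 86.4, 96.9 and 109 CPM in Gsdmd-/- 1 to 4. Neither WT 1 and WT 4 nor WT 2 and WT 3 stood together here, and the log2 fold change was -0.14 (interval -0.40 to 0.11, edgeR adjusted p = 0.675). Gm10657 shares 416 exon bases with Cd276, but had only 27 counts in all 8 libraries.

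Havcr2 (ENSMUSG00000020399, chr11:46454935-46481255, plus strand), the gene of the checkpoint receptor TIM-3, had 50.9, 41.1, 35.2 and 46.3 CPM in WT 1 to 4 and 44.7, 54.0, 41.9 and 48.8 CPM in Gsdmd-/- 1 to 4. The groups overlapped widely, with a log2 fold change of 0.13 (95% interval -0.15 to 0.41, edgeR adjusted p = 0.744). Cd48 (ENSMUSG00000015355, chr1:171682009-171705258, plus strand) varied least of the ligands among the WT libraries. It had 64.7, 62.6, 67.1 and 69.9 CPM in WT 1 to 4 and 64.2, 68.8, 77.2 and 63.7 CPM in Gsdmd-/- 1 to 4. Its log2 fold change of 0.05 had an interval of -0.14 to 0.24 (edgeR adjusted p = 0.854), and the SD of its log2 CPM among WT libraries was at percentile 5.27 of all genes tested.

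The members of the TNF and TNF receptor families were scarce. Cd40 (ENSMUSG00000017652, chr2:165055627-165072948, plus strand) had 20, 25, 10 and 31 counts in WT 1 to 4 and 24, 16, 21 and 17 counts in Gsdmd-/- 1 to 4. The WT libraries enclosed all Gsdmd-/- libraries, and the log2 fold change was -0.12 with an interval of -0.87 to 0.64 (edgeR adjusted p = 0.922). Tnfsf9 (ENSMUSG00000035678, chr17:57105325-57107757, plus strand) had 43, 7, 15 and 29 counts in WT and 10, 8, 10 and 28 counts in Gsdmd-/-, in the same order of libraries. Each group held high and low libraries, and the log2 fold change was -0.70 with an interval of -1.99 to 0.59 (edgeR adjusted p = 0.688). Gm11110 shares 192 exon bases with Tnfsf9 on the other strand and had 108 counts in the 8 libraries, so the counts of Tnfsf9 are uncertain.

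**Figure D3:**
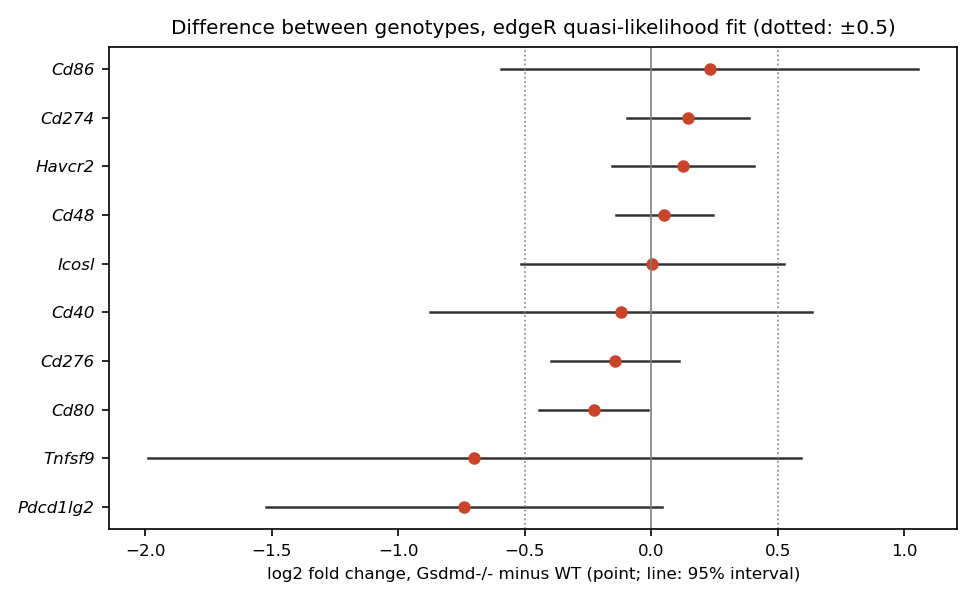
Log2 fold change of each ligand, Gsdmd-/- minus WT, as a point with a line for its 95% interval from edgeR, a solid line at 0 and dotted lines at -0.5 and 0.5. The interval of Cd80 (-0.44 to -0.01) is the only one that leaves out 0, the intervals of Cd48, Cd274, Cd276 and Havcr2 are narrow, and that of Tnfsf9 (-1.99 to 0.59) is the widest.

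The ligands differed in their spread among the WT libraries. WT 1 and WT 4 were both above WT 2 and WT 3 for 6 ligands, namely Cd80, Cd86, Pdcd1lg2, Icosl, Havcr2 and Tnfsf9, against 28.7% of all genes tested, and the reverse was seen for 0 ligands, against 29.4%. The mean of WT 1 and WT 4 was 3.26 times that of WT 2 and WT 3 for Tnfsf9, 3.02 times for Cd86, 2.81 times for Pdcd1lg2 and 1.76 times for Icosl, but 1.27 times for Havcr2 and 1.12 times for Cd80. The SD of log2 CPM was larger among WT than among Gsdmd-/- libraries for 8 ligands of 10, against 71.7% of all genes.

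Without WT 2 and WT 3, Pdcd1lg2 was lower in Gsdmd-/- with a log2 fold change of -1.30 (edgeR adjusted p = 0.00496), the only ligand called where 1.21% of all genes were. Without WT 1 and WT 4, an alternative added after the data had been seen, Cd86 was higher with a log2 fold change of 1.23 (adjusted p = 0.00296), again the only ligand called, where 20.7% of all genes were. Pdcd1lg2 then had 0.19 (adjusted p = 0.408). With WT 2 and WT 3 left out, the estimate for Cd86 was -0.36 (adjusted p = 0.393). Both splits follow the WT pairs seen in these data, between which Pdcd1lg2 and Cd86 differed, so these p-values are not independent evidence. At the cutoff of the study, 2 ligands (Pdcd1lg2 and Tnfsf9) were lower in the fit without WT 2 and WT 3, against 6.19% of all genes called, and 1 (Cd86) was higher in the fit without WT 1 and WT 4, against 16.5%. Icosl likewise went from -0.35 to 0.47 and Tnfsf9 from -1.32 to 0.38 between these settings, with no call at an adjusted p under 0.05. Cd274, Cd48, Cd276 and Cd80 kept their direction in both.

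**Figure D4:**
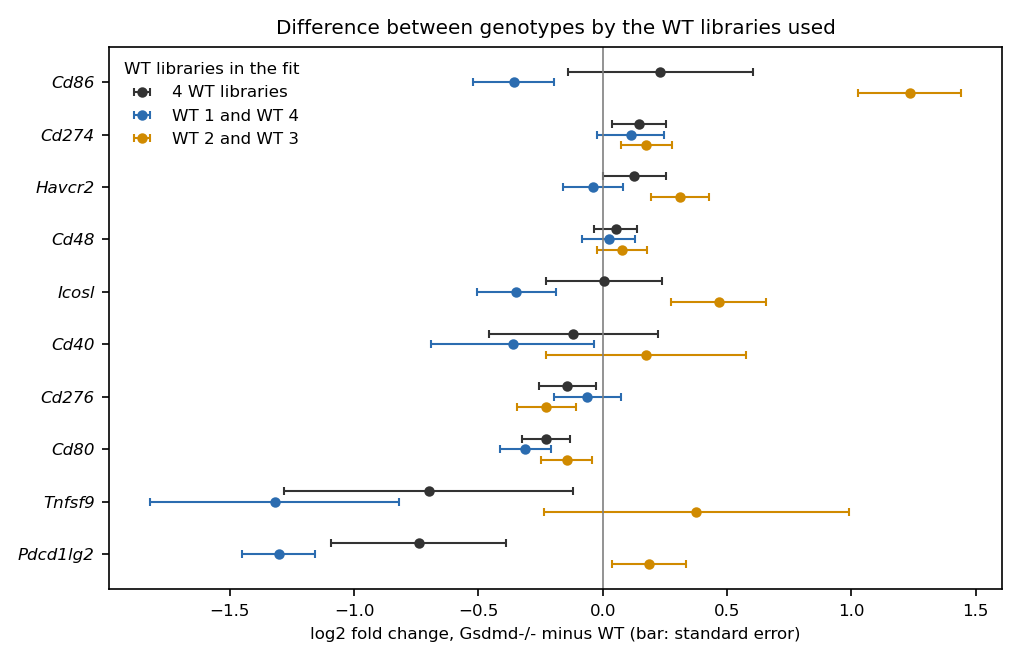
Log2 fold change of each ligand, Gsdmd-/- minus WT, with its standard error, from all 8 libraries, without WT 2 and WT 3, and without WT 1 and WT 4. Cd86 runs from -0.36 to 1.23 and Pdcd1lg2 from -1.30 to 0.19 depending on the WT pair, whereas Cd274 lies above and Cd80 below 0 in all 3 fits.

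Some markers of monocytes and of other cells differed between the same WT pairs. Ly6c2, a surface antigen of inflammatory monocytes, had 35.4 and 30.3 CPM in WT 1 and WT 4, 1.53 and 0.427 CPM in WT 2 and WT 3 and 15.4 to 22.9 CPM in Gsdmd-/-. Ccr2, the chemokine receptor of such monocytes, had 10.8 and 13.4 CPM against 2.32 and 2.62 CPM in those WT pairs and 2.89 to 4.31 CPM in Gsdmd-/-. Of the 8 macrophage markers, 6 were higher in both WT 1 and WT 4 than in WT 2 and WT 3, against 28.7% of all genes, and 2 were lower, against 29.4%. Fcgr1, an Fc receptor, was among the 6, with 36.2 and 40.7 CPM against 7.08 and 6.65 CPM. The opposite was seen for Mertk, a receptor for the uptake of dying cells (141 and 101 CPM against 249 and 212 CPM), and Adgre1, the gene of F4/80 (291 and 277 CPM against 319 and 326 CPM). Adgre1 had 242 to 274 CPM in Gsdmd-/-, below every WT library (log2 fold change -0.24, edgeR adjusted p = 0.310). It was the 1 marker of these 8 without overlap between genotypes, against 7.59% of all genes. Of the 5 mast cell and basophil markers, Kit had 70.9 and 59.9 CPM against 11.4 and 10.2 CPM, while the other 4 did not pass 1.58 CPM in any library. Of the 4 endothelial markers 2 were tested. Kdr, a VEGF receptor, had 65.5 and 54.8 CPM against 23.6 and 21.04 CPM in those WT pairs and between 44.1 and 77.7 CPM in Gsdmd-/-. Cdh5, the gene of VE-cadherin, was lower in Gsdmd-/- at the cutoff of the study, which 4.83% of all genes passed (log2 fold change -0.51, edgeR adjusted p = 0.402). The 10 dendritic cell markers summed to between 2244 and 2386 CPM in WT and between 1687 and 2105 CPM in Gsdmd-/-, nearly all of it Itgax. Of that list 5 genes were tested, all 5 with estimates below 0 (median -0.46), 0 at an adjusted p under 0.05 and 2 lower at the cutoff of the study, against 4.83% of all genes. These were Batf3, a transcription factor of cross-presenting dendritic cells (log2 fold change -0.72, edgeR adjusted p = 0.232), and Clec9a, a receptor of the same cells (-0.95, adjusted p = 0.304). Clec9a had 49.0 and 45.2 CPM in WT 2 and WT 3, 17.0 and 17.6 CPM in WT 1 and WT 4 and between 14.4 and 18.3 CPM in Gsdmd-/-. Siglech had 0 counts in all libraries and Flt3 in all but 1. The part of these cells in the levels of the ligands was not tested, and in bulk RNA fewer cells of a type and less RNA per cell cannot be told apart.

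Several receptors of the ligands, best known from lymphocytes, had few or no counts. Ctla4 and Cd40lg had 0 counts in every library, Pdcd1 had 1 count in all, and Icos had 1 in WT and 2 in Gsdmd-/-. Tnfrsf9 (4-1BB) had 65 counts in WT and 42 in Gsdmd-/- and was not tested. Cd28 was detected in every library, with 39.4 ± 6.31 CPM in WT and 49.1 ± 3.39 CPM in Gsdmd-/- (SD, n = 4 each). The 2 groups overlapped and the log2 fold change of 0.32 did not pass the test (edgeR adjusted p = 0.335). Lgals9, encoding galectin-9, which binds TIM-3, had 104 CPM in WT and 115 CPM in Gsdmd-/-, Rgmb, a partner of PD-L2, had 26.8 and 23.2 CPM, and Cd244a had 17.4 and 18.8 CPM. Treml2, proposed as a receptor of B7-H3, had 21.4 and 15.8 CPM (log2 fold change -0.43, edgeR adjusted p = 0.486). Hmgb1 and Ceacam1, both described as partners of TIM-3, had 28.9 and 34.4 CPM and 48.0 and 43.8 CPM, and Cd4 had 1.45 and 0.970 CPM. Cd2, with 42 counts in WT and 47 in Gsdmd-/-, was not tested. Of the 16 names of receptors and partners listed, 14 were in the count table, 8 were tested and 0 called, with 4 above and 4 below 0.

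Around the ligands, 73 names of related genes were listed, of which 71 were in the count table and 52 were tested. Of these, 1 rose and 1 fell at an adjusted p under 0.05 (3.85% of those tested, against 0.349% of all genes). Both are among 12 genes known to act on the expression or stability of PD-L1. The lists were chosen with earlier results of these data known, so this share is not independent evidence. Irf1, a transcription factor through which interferon induces Cd274, had 31.7, 38.9, 44.7 and 44.3 CPM in WT 1 to 4 and 21.1, 20.97, 26.6 and 25.2 CPM in Gsdmd-/- 1 to 4. Every Gsdmd-/- library lay below every WT library, with a log2 fold change of -0.77 (edgeR adjusted p = 0.0468). Myc, a transcription factor that has been tied to PD-L1 expression in tumour cells, rose from 36.5 ± 2.26 to 51.9 ± 2.85 CPM (log2 fold change 0.51, SD over 4 libraries each, edgeR adjusted p = 0.0361). The other 10 genes of that list were not called, and its median log2 fold change was -0.07.

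All 10 genes of the CD40 signalling list were tested, 0 were called at an adjusted p under 0.05, and 1, Traf2, was lower at the cutoff of the study, against 4.83% of all genes. Of these genes 8 lay below 0, the median was -0.24, and 4 did not overlap between the groups, against the 7.59% of all genes. Traf2, an adaptor of TNF receptors, had 13.8, 15.8, 17.5 and 17.3 CPM in WT 1 to 4 and 11.6, 7.97, 12.4 and 11.2 CPM in Gsdmd-/- 1 to 4, with a log2 fold change of -0.58 (edgeR adjusted p = 0.175). Nfkb2, the precursor of the p52 subunit in the noncanonical NF-kB pathway that CD40 uses, had 48.7 ± 4.98 CPM in WT and 36.3 ± 2.05 CPM in Gsdmd-/- (SD, n = 4 each; log2 fold change -0.42, edgeR adjusted p = 0.115), and was named after its values were seen.

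None of the other lists held a gene with an adjusted p under 0.05 in edgeR. The list of other TNF superfamily costimulators had 9 genes tested, 5 above and 4 below 0. Of these 9, only Tnfrsf18, the gene of GITR, was called at the cutoff of the study, against 4.83% of all genes. It was lower in Gsdmd-/- with a log2 fold change of -1.35 (edgeR adjusted p = 0.269), on 76 counts in WT and 29 in Gsdmd-/-. The list of other B7 and butyrophilin genes had 7 tested, none of them a butyrophilin, with 3 above and 4 below 0. The SLAM family had 6 tested, 4 above and 2 below 0, with 0 at the cutoff in either list. The TIM family genes on the list, 3 in all, were not tested, and their summed level did not pass 0.122 CPM in any library.

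For the 3 ligands with the lowest p-values, the genes with the most similar profile over the 8 libraries were sought by the root mean square difference of log2 CPM after centring each gene on its mean. Cd80 was closest to Mogs, a glucosidase of glycoprotein processing (0.0602), and Zadh2 (0.0616). Cd274 was closest to Zmym4 (0.0240) and Lrig2 (0.0320). The nearest genes to Pdcd1lg2 were farther off, namely Pilra, an inhibitory receptor of myeloid cells (0.140), and Fgr, a Src family kinase of myeloid cells (0.173). Pilra had 44.7, 16.1, 21.2 and 73.2 CPM in WT 1 to 4 and between 17.96 and 26.4 CPM in Gsdmd-/-, again with WT 1 and WT 4 above all others.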

How the data were processed

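RNA of BMDMs was sequenced in 4 WT and 4 Gsdmd-/- libraries (TruSeq, sequenced by a company). The authors deposited raw read counts per gene, not normalized. The build is mm10 per the submitters' processing notes, and the aligner, counter, annotation and strand setting are not given in the sources used here. Each column was matched to its sample by its label, and all values were whole numbers.

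Counts were scaled by TMM, filtered with filterByExpr and compared with the quasi-likelihood test of edgeR 4.0.16 (R 4.3.3), two-sided, on genotype alone, with Benjamini-Hochberg adjustment over all 12911 genes tested. Log2 CPM used a prior count of 2. For ratios the test was an exact permutation of libraries (two-sided). Gene positions and exon lengths come from GENCODE M21 (GRCm38). The limma 3.58.1 and DESeq2 1.42.0 alternatives, 2 other scalings, other filters, a replicate block and left-out libraries were tried (closing section).

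All 10 ligands, their receptors or partners, related genes called at either threshold, and the 2 genes nearest in profile to the 3 ligands of lowest p were named by rule. Members and lists were chosen with earlier results of these data known, so their calls are not independent evidence. On simulated counts for this comparison, 74% of genes changed by a log2 fold change of 1 and 97% of those changed by 2 were recovered, and 12 of 183 calls were false. The changed genes were drawn from those above a minimum mean count, and the simulation held no split of the WT libraries. These shares therefore need not hold for the ligands. With total counts of 14935114 to 16794810, Cd40 and Tnfsf9 had between 7 and 43 counts per library, the fewest of the ligands. The summed level of the monocyte list is not reported here.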

Additional observations from a re-analysis of the deposited data

Results flagged for a closer look

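Tnfsf9 in Gsdmd-/- 4 stood far from the other libraries of its group. It had 1.86 CPM (28 counts), where Gsdmd-/- 1 to 3 had between 0.473 and 0.634 CPM, and the gap took up 0.883 of the range of the group, above Dixon's critical value of 0.829 for 4 samples. Without this library the log2 fold change of Tnfsf9 was -1.33 in place of -0.70 (edgeR adjusted p = 0.515), and without WT 1, the highest library, it was -0.23 (adjusted p = 0.897). The 10 ligands gave 20 groups to examine, and chance marks about 1 group in 20.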

How the results depend on the processing

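At an adjusted p under 0.05, 0 ligands were called with all libraries and 0 to 0 when 1 library was left out, but 1 without WT 2 and WT 3 (Pdcd1lg2, log2 fold change -1.30) and 1 without WT 1 and WT 4 (Cd86, 1.23). These WT pairs are the split seen in the data, so the calls of Pdcd1lg2 and Cd86 are not independent evidence. At the cutoff of the study the count of 0 became 1 with no filter and 1 with DESeq2 (Pdcd1lg2 in both), 2 without WT 2 and WT 3 (Pdcd1lg2 and Tnfsf9), 1 without WT 1 and WT 4 (Cd86), and between 0 and 1 when a library was left out (Pdcd1lg2 without WT 2 or WT 3, Tnfsf9 without Gsdmd-/- 4). Over all genes, the 45 calls at an adjusted p under 0.05 became 109 with no filter, 292 with DESeq2, 161 without WT 2 and WT 3, 2778 without WT 1 and WT 4, and 14 to 84 when a library was left out. The 623 genes at the cutoff became 1204 with no filter, 199 with a log2 fold change of at least 1, 2214 without WT 1 and WT 4, and 469 to 1022 when a library was left out. With limma voom, RLE and upper-quartile scaling, 0 ligands were called at either threshold, no ligand changed sign, and 43, 49 and 45 genes were called at an adjusted p under 0.05. The causes were not tested.

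Without WT 2 and WT 3 the log2 fold change changed sign for Cd86 (-0.36), Icosl (-0.35) and Havcr2 (-0.040), and the log2 ratio of Cd80 to Cd86 for the difference between genotypes (0.043). Without WT 1 and WT 4 it changed sign for Pdcd1lg2 (0.19), Tnfsf9 (0.38) and Cd40 (0.17), and for the log2 ratio of Cd274 to Pdcd1lg2 (-0.012). With at least 10 counts in every library Icosl had -1.4e-04, and Tnfsf9 had no value. When a library was left out, estimates ran from -0.029 to 0.57 for Cd86, -0.35 to 0.11 for Cd40, -0.17 to 0.18 for Icosl and -0.0092 to 0.083 for Cd48, while Cd80 (-0.28 to -0.19), Cd274 (0.081 to 0.22), Cd276 (-0.23 to -0.076), Havcr2 (0.039 to 0.21), Pdcd1lg2 (-0.97 to -0.37) and Tnfsf9 (-1.33 to -0.23) kept their sign. The ratios ran from -0.92 to -0.37 for Cd80 to Cd86 and from 0.33 to 1.00 for Cd274 to Pdcd1lg2.

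Replicate numbers of the labels did not pair the libraries. The correlation of deviations between libraries of the same number was 0.0268, 0.182, 0.0412 and -0.201, and 1 of 4 WT libraries correlated best with its own number. With a replicate block 0 ligands were called, Pdcd1lg2 had a log2 fold change of -0.58 (edgeR adjusted p = 0.527), Cd86 0.40 (adjusted p = 0.753) and Tnfsf9 -0.65, and 25 genes in place of 45 were called over the table. Cd40 and Tnfsf9 rest on the fewest counts, between 7 and 43 per library, and how much of their spread is counting error was not tested.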

Other observations

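Other surface molecules of the same families also differed between the WT pairs, and are named here after their values were seen. Vsir, the gene of the checkpoint protein VISTA, went the other way from Cd86, Pdcd1lg2 and Icosl, with 423 and 431 CPM in WT 1 and WT 4, 769 and 757 CPM in WT 2 and WT 3 and between 448 and 513 CPM in Gsdmd-/- (log2 fold change -0.31, edgeR adjusted p = 0.590). The 7 tested genes on its list of other B7 and butyrophilin genes were Vsir, Nectin2, Pvr, Cd200, Cd200r1, Cd47 and Sirpa, none of them a butyrophilin. Of these 7, 5 were higher in both WT 2 and WT 3 than in WT 1 and WT 4, against 29.4% of all genes, and 1 was lower in both. Tnfsf14 (LIGHT), a TNF family ligand, had 4.68 and 5.65 CPM in WT 1 and WT 4, 0.976 and 0.854 CPM in WT 2 and WT 3 and between 2.58 and 3.37 CPM in Gsdmd-/-. On its list 5 of 9 tested genes had both WT 1 and WT 4 higher (28.7% of all genes) and 1 the reverse. Slamf6, of the SLAM family, had 4.01 and 4.50 CPM against 0.976 and 1.34 CPM in those WT pairs and between 2.91 and 4.44 CPM in Gsdmd-/-, and on its list 3 of 6 tested genes had both WT 1 and WT 4 higher and 1 the reverse.

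The genes nearest in profile to Cd86 were Ear6 (root mean square difference of log2 CPM 0.116) and Ly6e (0.130). Ly6e, an interferon-induced surface protein, had 1019, 315, 344 and 1180 CPM in WT 1 to 4 and between 734 and 905 CPM in Gsdmd-/- 1 to 4. The nearest genes to Icosl were Fam234b (0.0880) and Ddx58 (0.0916), the gene of the RNA sensor RIG-I, which had 40.3, 22.9, 20.2 and 41.4 CPM in WT 1 to 4 and between 27.8 and 33.7 CPM in Gsdmd-/-.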
